A study of Mus musculus with 6 samples.

Results

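The genes described here are 10 components and targets of the Wnt pathway: the receptor genes Fzd7 and Lgr4, the signal carrier Ctnnb1, the DNA-binding factors Tcf7l1, Lef1 and Tcf7, and the targets Axin2, Sp5, Nkd1 and Dkk1. They were chosen by name, with earlier results of these data known, so their counts beside those of all genes are no independent test. Of the 10 genes 9 had a value among the 18194 genes of the arrays. Tcf7 had no probe set with its symbol alone in the probe table used here and was not analysed. The values come from mouse cells cultured from the testis, of 3 kinds and 2 Affymetrix arrays each: multipotent (mSSC), intermediate (iSSC) and unipotent germ-line (SSC) spermatogonial stem cells. All 3 kinds came from male ICR mice 3 to 5 days old, with no genetic change or drug named in the labels, and were grown with mitomycin-treated embryonic fibroblasts as a feeder layer. Colonies were collected by hand by their shape, so a sample can hold feeder or testis somatic cells besides the stem cells. The labels speak of clumps from passages 0 to 1 and 9 to 10 and of 2 culture media, and do not say which array had which. Whether 2 arrays of a kind stem from different cultures or mice is not stated either. The p-values therefore rest on a spread that may be technical.

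In canonical Wnt signalling a secreted ligand binds a Frizzled receptor and its co-receptor at the cell surface, which stops the destruction of beta-catenin, the product of Ctnnb1. Beta-catenin then enters the nucleus and binds the Tcf and Lef proteins, turning on targets of which several, among them Axin2, Nkd1 and Dkk1, dampen the pathway in return. In mouse embryonic stem cells Tcf7l1 represses genes of the pluripotency network, and Wnt signals counter that repression. In the mouse testis Axin2 marks undifferentiated spermatogonia that respond to Wnt.

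Levels are the deposited log2 expression values, and differences are log2 differences of group means with the standard error (SE) of a limma fit over all 6 arrays. A gene was called at an adjusted p under 0.05, with the Benjamini-Hochberg adjustment over all 18194 genes. Each mean rests on n = 2 arrays, which limits the precision. Over all 45101 probe sets the array medians lay between 5.83 and 5.93 and the lower quartiles between 4.23 and 4.38. A level near that quartile is near background, and levels of different genes cannot be set against each other because probes differ in brightness. The mSSC arrays could be told apart from those of the other kinds by pluripotency and germ line markers, whereas iSSC and SSC lay close on the means of both lists. Single genes lay further apart. Their differences of iSSC from SSC ranged from -0.29 to 1.38 in the pluripotency list and from -1.44 to 1.11 in the germ line list. The mean level of 8 pluripotency genes was 11.31 and 11.41 in mSSC, 6.37 and 6.28 in iSSC, and 5.98 and 5.94 in SSC. The mean of 7 germ line genes was 6.90 and 7.24 in mSSC, 10.99 and 11.01 in iSSC, and 10.64 and 10.92 in SSC. Markers of other cells moved too. For 12 fibroblast genes the mean level was 8.05 and 9.62 in mSSC, 9.81 and 10.13 in iSSC, and 12.09 and 11.42 in SSC. For 11 macrophage genes it was 5.43 and 5.47 in mSSC, 9.52 and 8.77 in iSSC, and 11.88 and 11.04 in SSC. For 10 Sertoli cell genes it was 6.12 and 5.98 in mSSC, 6.92 and 6.66 in iSSC, and 8.06 and 8.42 in SSC. In mSSC against SSC 8 of the 12 fibroblast, 11 of the 11 macrophage and 8 of the 10 Sertoli cell genes fell, against 10.6% of all genes. In iSSC against SSC 0 of the 8 pluripotency and 0 of the 7 germ line genes were called, against 2.09% of all genes. There 6 of the 11 macrophage, 3 of the 10 Sertoli cell and 0 of the 12 fibroblast genes were called lower, against 1.87% of all genes. Though not called, all 12 fibroblast genes had differences below 0, as did 7003 of all 18194 genes. Their median difference was -1.85, beside 0.10 over all genes. At an unadjusted p under 0.05 in limma there were 6 of the 12 (50%), against 17% of all genes. The part of these cells in the differences below was not tested. In such mixed samples fewer cells of a type and less RNA per cell cannot be told apart.

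**Figure D1:**
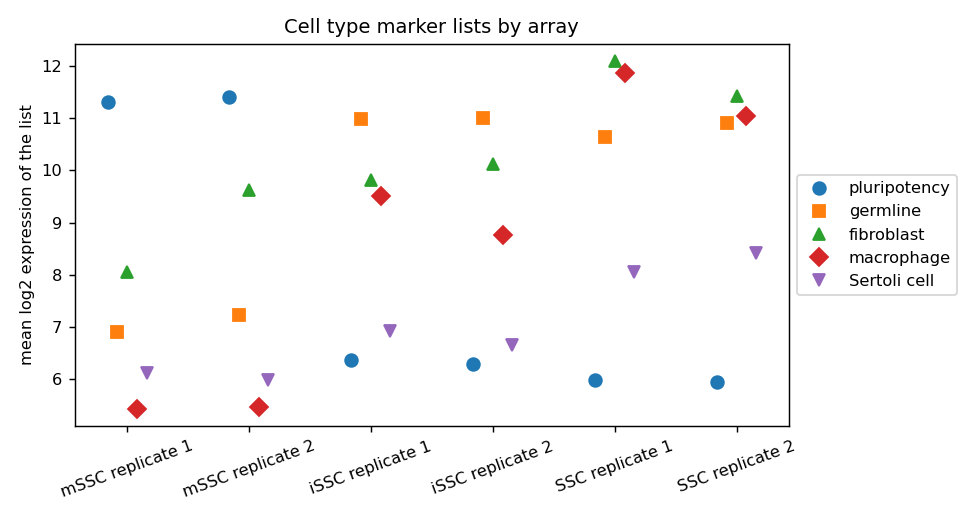
Mean log2 expression of 5 marker lists (vertical axis) on each of the 6 arrays (horizontal axis). Pluripotency genes stand at 11.31 and 11.41 in the mSSC arrays and below 6.4 elsewhere. The means of the macrophage and Sertoli cell lists are lower in mSSC than in both other kinds. Within the Sertoli cell list 4 of 10 genes were higher in mSSC than in iSSC.

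The comparison of mSSC with SSC asks how the pathway differs between multipotent and unipotent cells. Both receptor genes and both Tcf/Lef genes with a value were higher in mSSC, while Ctnnb1 itself did not pass the test. Of the 9 genes 4 rose (Fzd7, Lgr4, Tcf7l1 and Lef1), 0 fell and 5 did not pass in limma, against 8.22% of all genes called higher and 10.6% called lower. The median difference of the 9 was 1.13, beside 0.08 over all genes. The values of the 2 groups did not overlap for 6 genes higher in mSSC and 2 lower, which held for 32.3% and 26.3% of all genes.

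Fzd7 encodes a Frizzled receptor that binds Wnt ligands. Its level was 10.13 and 9.94 in mSSC, 8.89 and 9.27 in iSSC, and 8.94 and 8.49 in SSC. Both mSSC arrays lay above the other 4, and the iSSC and SSC arrays overlapped. Fzd7 rose 2.49-fold in mSSC against SSC (1.32 ± 0.26, adjusted p = 0.019), and that call was lost without mSSC replicate 1 (adjusted p = 0.075). Against iSSC it was at 0.95 ± 0.26 (adjusted p = 0.053). Leaving out the dimmer genes, quantile normalization or fitting only the 4 arrays compared brought it past the threshold. So did shifting the arrays to a common median, which adds the same amount to the difference of every gene. A second, dimmer probe set of Fzd7 had a smaller difference from SSC (0.83 ± 0.29, adjusted p = 0.099) and nearly none from iSSC (0.11 ± 0.29, adjusted p = 0.85). On that probe set the level was 6.91 and 7.34 in mSSC, 7.00 and 7.02 in iSSC, and 5.98 and 6.61 in SSC, so the mSSC and iSSC arrays overlapped.

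Lgr4 encodes a receptor for R-spondins, secreted proteins that strengthen Wnt signals by keeping Frizzled receptors at the cell surface. It stood at 10.65 and 11.03 in mSSC, 8.20 and 8.61 in iSSC, and 7.83 and 9.18 in SSC. The mSSC arrays were the highest, and the SSC arrays differed from each other more than those of any other kind (SD 0.95, against 0.27 in mSSC and 0.29 in iSSC). The difference of mSSC from SSC was 2.34 ± 0.45, or 5.05-fold (adjusted p = 0.017), and that from iSSC 2.44 ± 0.45, or 5.42-fold (adjusted p = 0.016). With 1 array left out the difference from SSC ranged from 1.67 to 3.01 and that from iSSC from 2.23 to 2.64. The call against SSC was lost without mSSC replicate 2. The call against iSSC was lost without mSSC replicate 2 and without either iSSC array. A second probe set lay between 3.79 and 4.13 on all 6 arrays, below the lower quartile of each, and showed no difference past the threshold (0.12 ± 0.22 in mSSC against SSC, adjusted p = 0.76).

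Ctnnb1 encodes beta-catenin, which also joins cadherins to the cytoskeleton. Its brightest probe set read 13.40 and 13.37 in mSSC, 13.38 and 13.56 in iSSC, and 13.33 and 13.63 in SSC, and all 3 groups overlapped. The difference of mSSC from SSC was -0.09 ± 0.22, with a 95% interval from -0.62 to 0.43 on this probe set (adjusted p = 0.81). This sign turned to 0.16 when the arrays were shifted to a common median. The other 2 probe sets of Ctnnb1 set 1 array apart. The first read 11.89 and 11.82 in mSSC, 11.71 and 11.91 in iSSC, and 10.62 and 11.90 in SSC. The second read 11.43 and 11.40 in mSSC, 11.17 and 11.29 in iSSC, and 9.53 and 11.21 in SSC. Their differences of mSSC from SSC were 0.60 ± 0.41 (adjusted p = 0.37) and 1.04 ± 0.51 (adjusted p = 0.21), both outside the interval of the brightest one. On both, SSC replicate 1 was the low array, while SSC replicate 2 lay among the other kinds. In SSC replicate 1 the 3′ probe set of the beta-actin control exceeded the 5′ one by 0.89, against 0.12 to 0.61 on the other 5 arrays, and for Gapdh by 0.25, against -0.35 to -0.10. The part of RNA quality in the low Ctnnb1 values was not tested.

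**Figure D2:**
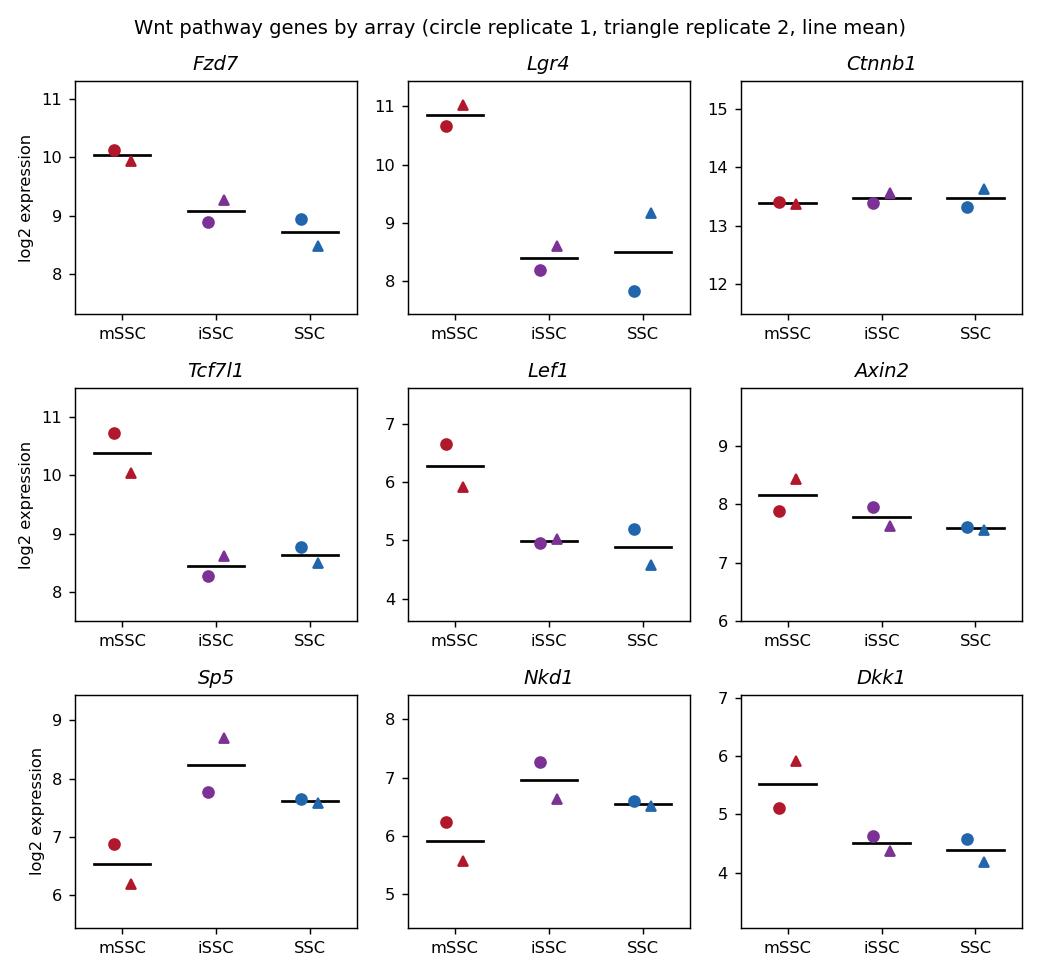
Log2 expression (vertical axis, each panel at least 4 units high) of the 9 Wnt pathway genes in mSSC, iSSC and SSC, with a circle for replicate 1, a triangle for replicate 2 and a line at the mean. Fzd7, Lgr4, Tcf7l1, Lef1 and Dkk1 are higher on both mSSC arrays than on the other 4, Sp5 and Nkd1 are lower, and Ctnnb1 is level.

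Tcf7l1, once called Tcf3, encodes the Tcf protein that acts mainly as a repressor. It was measured at 10.73 and 10.03 in mSSC, 8.27 and 8.61 in iSSC, and 8.78 and 8.50 in SSC, so the lowest mSSC array exceeded the highest of the others by more than 1 log2 unit. It rose 3.35-fold in mSSC against SSC (1.74 ± 0.30, adjusted p = 0.012) and 3.84-fold against iSSC (1.94 ± 0.30, adjusted p = 0.0093). Its second probe set gave a larger difference from SSC (2.69 ± 0.23, adjusted p = 0.0017) and a like one from iSSC (2.02 ± 0.23). The call against SSC held in limma under all 13 other settings tried, among them leaving out each of the 6 arrays. There, leaving out either iSSC array gave the same result as fitting only the 4 arrays compared, so these are not separate checks. The call against iSSC was lost without either iSSC array, where the difference was 1.77 without replicate 1 and 2.11 without replicate 2.

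Lef1 encodes a Tcf/Lef protein that mostly activates targets together with beta-catenin, and it is a Wnt target itself. It lay low on these arrays, at 6.65 and 5.91 in mSSC, 4.95 and 5.03 in iSSC, and 5.20 and 4.58 in SSC. Only the mSSC arrays reached the array median, while the SSC and iSSC arrays overlapped below it. Lef1 rose in mSSC by 1.39 ± 0.33 against SSC (2.62-fold, adjusted p = 0.034) and by 1.29 ± 0.33 against iSSC (2.45-fold, adjusted p = 0.045). Against SSC the call was lost without SSC replicate 2 (adjusted p = 0.10), without mSSC replicate 1 (adjusted p = 0.12) and without either iSSC array (adjusted p = 0.077). Against iSSC it was lost without mSSC replicate 1 (adjusted p = 0.16), without iSSC replicate 1 (adjusted p = 0.21) and without iSSC replicate 2 (adjusted p = 0.18). A dimmer probe set read 4.67 and 4.79 in mSSC, 3.89 and 4.01 in iSSC, and 4.02 and 3.32 in SSC, and rose against SSC (1.06 ± 0.28, adjusted p = 0.044) but did not pass against iSSC (0.78 ± 0.28, adjusted p = 0.11).

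**Figure D3:**
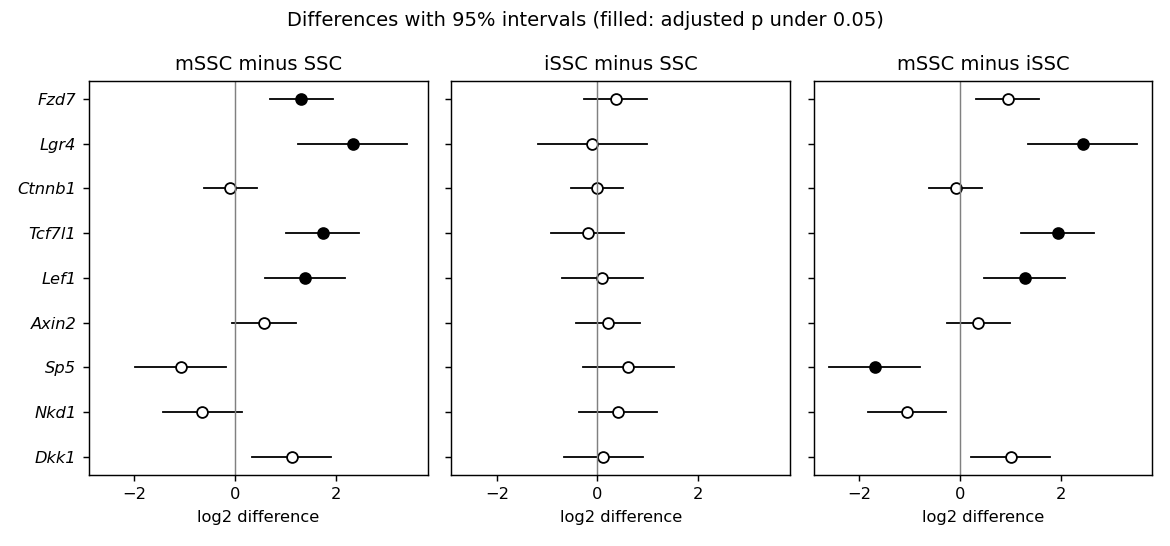
Log2 differences (horizontal axis) of the 9 Wnt pathway genes in 3 comparisons, with 95% intervals from limma and filled points where the adjusted p was under 0.05. Lgr4 has the largest difference in mSSC against SSC (2.34) and Sp5 is the only filled point below 0, at -1.69 in mSSC against iSSC.

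The 4 targets did not move together. Axin2, the scaffold of the complex that destroys beta-catenin, is a target in most tissues that receive Wnt signals. It read 7.88 and 8.43 in mSSC, 7.95 and 7.63 in iSSC, and 7.61 and 7.56 in SSC. The mSSC arrays were above the SSC arrays but overlapped with iSSC. The difference from SSC was 0.57 ± 0.26 with a 95% interval from -0.06 to 1.20 (adjusted p = 0.19), and that from iSSC was 0.37 ± 0.26 (adjusted p = 0.42), and neither was called under any of the 13 other settings. A second Axin2 probe set stayed between 4.13 and 4.41 on all arrays. Profiles over the 6 arrays were compared with that of Axin2 for 10309 genes whose highest group mean exceeded the median of all genes in that group. By the mean absolute difference of values centred on each gene's mean, the 5 most alike were Swap70 (0.078), Sdr39u1 (0.080), Mdm4 (0.083), Gstp1 (0.091) and Dnajc7 (0.096). Axin2 had no called difference, so this likeness rests on small differences between arrays, and shared regulation was not tested.

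Sp5, a zinc finger factor that Wnt induces directly and that represses other Wnt targets, went the other way. Its only probe set read 6.89 and 6.20 in mSSC, 7.77 and 8.69 in iSSC, and 7.66 and 7.58 in SSC. Both mSSC arrays were below the other 4, and both iSSC arrays were above the SSC arrays. Sp5 fell 3.23-fold in mSSC against iSSC (-1.69 ± 0.37, adjusted p = 0.028), and was at -1.08 ± 0.37 against SSC (adjusted p = 0.098). With a term for the replicate number the value against iSSC had adjusted p = 0.050, which no longer passed, and it was also lost without either iSSC array (adjusted p = 0.054 without replicate 1 and 0.15 without replicate 2) or without mSSC replicate 2 (adjusted p = 0.10).

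Nkd1, an inhibitor that binds Dishevelled inside the cell, read 6.25 and 5.57 in mSSC, 7.28 and 6.64 in iSSC, and 6.59 and 6.52 in SSC on its brightest probe set. As for Sp5, the mSSC arrays were the lowest and the iSSC arrays the highest. It was at -0.65 ± 0.32 against SSC (adjusted p = 0.22) and -1.05 ± 0.32 against iSSC (adjusted p = 0.076), which passed with a term for the replicate number (adjusted p = 0.043). The second of its 4 probe sets had the same order and fell in mSSC against iSSC (-1.49 ± 0.29, adjusted p = 0.019). The 2 dimmest differed little between the kinds (0.06 ± 0.31 and 0.12 ± 0.24 in mSSC against iSSC).

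Dkk1, a secreted inhibitor that binds the Wnt co-receptors, read 5.11 and 5.92 in mSSC, 4.63 and 4.38 in iSSC, and 4.58 and 4.19 in SSC. It was higher on both mSSC arrays than on the other 4, where it was near background. The difference was 1.13 ± 0.32 from SSC (adjusted p = 0.058) and 1.01 ± 0.32 from iSSC (adjusted p = 0.084). Both passed in limma with the arrays shifted to a common median (adjusted p = 0.028 and adjusted p = 0.048). That shift adds the same amount to the difference of every gene. It moved the median difference of all genes from 0.08 to 0.33 against SSC and from -0.01 to 0.18 against iSSC. Without mSSC replicate 1 the Dkk1 differences were 1.53 from SSC and 1.41 from iSSC. Of the mSSC arrays, replicate 2 had more Dkk1 signal and higher fibroblast markers (9.62, against 8.05 in replicate 1), whose part in the Dkk1 values was not tested. A second Dkk1 probe set lay between 3.18 and 3.54 on all arrays.

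**Figure D4:**
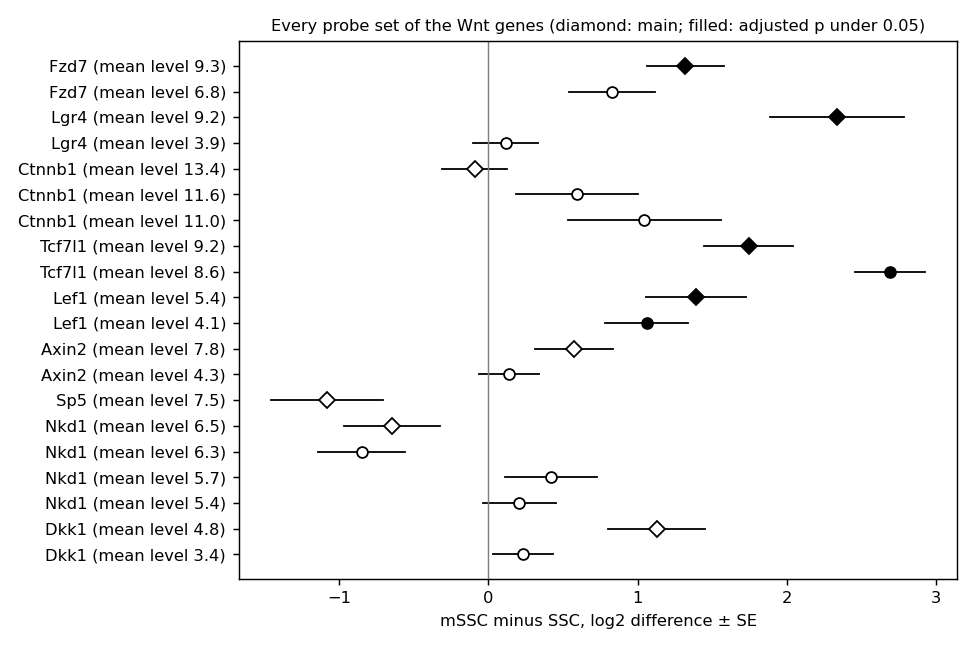
Log2 difference of mSSC from SSC ± SE (horizontal axis) for each of the 20 probe sets of the 9 genes, labelled with the mean log2 level over 6 arrays. Both probe sets of Tcf7l1 and of Lef1 are filled (adjusted p under 0.05), whereas for Fzd7 and Lgr4 only the brighter one is.

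The start regions of Sp5, Dkk1 and Lef1 are shown, whose mSSC values lay on different sides of the other arrays. These genes were the only ones of the 10 to hold TCAAAG, a form of the core that Tcf and Lef proteins bind. RefSeq promoter windows of the assembly GRCm38.p6 were found for all 10 genes, 15 windows in all. The 250 bases before each start were searched on both strands for TCAAAG, which reads CTTTGA on the other strand. At least 1 core was in 3 of these 15 windows, against 13.8% of 32851 windows of all genes. The match describes these letters only, and other forms of the core were not searched for, so they are not in capitals. The cores are in capitals below, and each sequence is given 5′ to 3′ on the strand of its gene.
Sp5, chr2:70474673-70474922, plus strand: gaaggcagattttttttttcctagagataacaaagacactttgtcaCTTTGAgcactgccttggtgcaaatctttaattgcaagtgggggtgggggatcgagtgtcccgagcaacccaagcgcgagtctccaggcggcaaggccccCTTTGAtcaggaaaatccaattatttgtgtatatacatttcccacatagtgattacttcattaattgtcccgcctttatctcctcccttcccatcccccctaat
Dkk1, chr19:30549497-30549746, minus strand: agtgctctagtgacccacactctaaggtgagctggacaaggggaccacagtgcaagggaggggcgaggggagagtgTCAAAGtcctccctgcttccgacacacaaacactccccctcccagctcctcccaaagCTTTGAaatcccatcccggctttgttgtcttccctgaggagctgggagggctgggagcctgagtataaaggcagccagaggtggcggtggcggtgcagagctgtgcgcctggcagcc
Lef1, chr3:131156044-131156293, plus strand: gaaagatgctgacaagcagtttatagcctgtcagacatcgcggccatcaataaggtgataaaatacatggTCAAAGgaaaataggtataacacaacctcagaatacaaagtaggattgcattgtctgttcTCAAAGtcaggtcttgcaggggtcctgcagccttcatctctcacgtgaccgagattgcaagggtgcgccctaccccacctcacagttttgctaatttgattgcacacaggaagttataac
Each held 2 matches to the letters searched. In Sp5 they began 204 and 104 bases before the start, both as CTTTGA, and in Dkk1 174 and 117 bases before it, one in each form. In Lef1 they began 180 and 120 bases before the start of the most downstream of its 4 windows, and the other 3 windows held none. Neither did the windows of Axin2, Nkd1, Tcf7l1, Lgr4 and Fzd7.

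The comparison of iSSC with SSC asks whether the pathway already differs in the intermediate state. No gene of the 9 was called in limma, against 2.09% of all genes called. At an unadjusted p under 0.05 there were 0 of 9, against 17% of all genes. The differences lay between -0.20 (Tcf7l1) and 0.61 (Sp5), with a median of 0.12 beside 0.10 over all genes. The 95% intervals were wide, from -0.29 to 1.52 for Sp5 and from -1.18 to 0.98 for Lgr4, so differences inside such intervals could not be told from none. The iSSC and SSC arrays did not overlap for 3 genes, Axin2, Sp5 and Nkd1, all higher in iSSC, which held for 32.3% of all genes.

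The comparison of mSSC with iSSC shares the mSSC arrays with the first. Of the 9 genes 3 rose (Lgr4, Tcf7l1 and Lef1), 1 fell (Sp5) and 5 did not pass, against 7.53% of all genes called higher and 9.6% called lower. The 2 groups did not overlap for 5 genes higher in mSSC and 2 lower, against 29.6% and 33.2% of all genes. The median difference of the 9 was 0.95, beside -0.01 over all genes. With 1 array left out the differences ranged from 2.23 to 2.64 for Lgr4 and from 1.59 to 2.29 for Tcf7l1. They ranged from 0.92 to 1.66 for Lef1 and from -2.15 to -1.23 for Sp5. None of these calls held with every array left out in turn, and without either iSSC array fewer genes were called over all genes too. In those fits the lone array of a kind is assumed to vary like the others.

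Around these genes, 104 of 106 other pathway genes in 7 groups were measured. In mSSC against SSC 6 rose, 12 fell and 86 did not pass, which is 5.77% and 11.5%, near the 8.22% and 10.6% of all genes, and their median difference was 0.00. With the arrays shifted to a common median, which moved the median difference of all genes from 0.08 to 0.33, the split was 13 higher and 9 lower, and that of all genes 2527 and 1432, beside 1495 and 1930 without the shift. Fewer were called without mSSC replicate 1, as over all genes. In mSSC against iSSC 5 (4.81%) rose, 11 (10.6%) fell and 88 did not pass, beside 7.53% and 9.6% of all genes. The split was 10 and 8 with a common median and 8 and 8 after quantile normalization. There the split of all genes was 1771 and 1340 with a common median, beside 1370 and 1747. Without either iSSC array fewer were called, again as over all genes.

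Among 14 other receptors 2 rose and 4 fell in mSSC against SSC, or 14.3% and 28.6%, against 8.22% and 10.6% of all genes. Fzd5, another Frizzled receptor, read 9.57 and 9.80 in mSSC, 6.46 and 7.09 in iSSC, and 7.31 and 7.26 in SSC. It rose in mSSC, like Fzd7 (2.40 ± 0.27 against SSC, adjusted p = 0.0035, and 2.91 ± 0.27 against iSSC, adjusted p = 0.0022), and it was called under all 13 other settings in both comparisons. Fzd1 and Fzd2 fell in mSSC, with differences of -2.61 ± 0.43 and -1.53 ± 0.20 from SSC and of -2.06 ± 0.43 and -1.44 ± 0.20 from iSSC. Fzd3 also fell, with differences of -1.14 ± 0.23 from SSC (kept under 8 of 13 settings) and -1.80 ± 0.23 from iSSC. Ryk, a receptor with an inactive kinase domain, fell by 0.81 ± 0.22 against SSC (adjusted p = 0.048), a call kept under 3 of 13 settings. The other receptor gene that rose in mSSC against SSC was Fzd9 (1.59 ± 0.29, adjusted p = 0.015), kept under 10 of 12 settings. Against iSSC Fzd9 was at 1.00 ± 0.29 (adjusted p = 0.067).

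Of 21 ligand and secretion genes 1 rose and 3 fell in mSSC against SSC, or 4.76% and 14.3%, against 8.22% and 10.6% of all genes. Porcn, the enzyme that adds the lipid Wnt ligands need for release, rose 4.98-fold (2.32 ± 0.39, adjusted p = 0.011), with levels of 9.01 and 8.35 in mSSC, 6.33 and 5.81 in iSSC, and 6.79 and 5.94 in SSC. Wls, which carries the finished ligands to the cell surface, fell (-2.76 ± 0.73, adjusted p = 0.046), a call kept under 5 of 13 other settings and lost with either scaling, in the fit of 4 arrays and without any array but mSSC replicate 2. The ligand genes Wnt5a (-3.35 ± 0.69, adjusted p = 0.022) and Wnt2 (-1.50 ± 0.30, adjusted p = 0.020) fell too. Wnt5a, a ligand that often acts without beta-catenin, read 4.18 and 5.95 in mSSC, 7.74 and 8.72 in iSSC, and 9.04 and 7.80 in SSC. Of 8 genes of the R-spondin module 1 (12.5%, against 10.6% of all genes) fell, Rspo2, a ligand of the Lgr receptors. It read 4.54 and 7.40 in mSSC, 10.50 and 10.76 in iSSC, and 9.72 and 9.98 in SSC (-3.88 ± 0.83 against SSC, adjusted p = 0.024, kept under 8 of 13 settings). This ligand was thus lower on the mSSC arrays than on the others, while the receptor gene Lgr4 was higher. Between the mSSC arrays the order was not inverse. There replicate 2 had more Rspo2 and also more Lgr4 (11.03, against 10.65 in replicate 1). Wls, Wnt5a and Rspo2 were each lower in mSSC replicate 1 than in replicate 2, as were the fibroblast markers (8.05 and 9.62), whose part in the result was not tested.

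Of 16 inhibitors 0 rose and 2 (12.5%) fell in mSSC against SSC in limma, against 8.22% and 10.6% of all genes. At an unadjusted p under 0.05 there were 5 of 16, against 33.4% of all genes. The inhibitors did not fall as a group. Of the 16 differences 9 were above 0, as were 10162 of 18194 over all genes, and their median was 0.11, beside 0.08. Frzb, which binds Wnt ligands outside the cell, fell (-3.25 ± 0.49, adjusted p = 0.0084), as did Sfrp2 of the same family (-1.59 ± 0.37, adjusted p = 0.032). The Sfrp2 call was kept under 7 of 13 settings and lost with a term for the replicate number, with quantile normalization and without any 1 of the 4 arrays compared. Against iSSC 3 (18.8%, beside 9.6% of all genes) fell, among them Wif1, another binder of Wnt ligands (-2.73 ± 0.53, adjusted p = 0.019). Wif1 read 3.81 and 3.22 in mSSC, 6.07 and 6.42 in iSSC, and 3.55 and 5.19 in SSC.

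Inside the cell, 1 of 16 cytoplasmic transducers rose and 1 fell in mSSC against SSC, or 6.25% each way, against 8.22% and 10.6% of all genes. Jup, or gamma-catenin, the closest relative of beta-catenin, rose (1.11 ± 0.23, adjusted p = 0.022, kept under 8 of 13 settings, and 1.42 ± 0.23 against iSSC, adjusted p = 0.011). Dvl1, a Dishevelled protein that relays the signal from Frizzled, fell (-0.80 ± 0.22), just under the threshold and under 0 of 13 other settings, although it fell also against iSSC (-1.08 ± 0.22, adjusted p = 0.021). Apc, a scaffold of the destruction complex, was the only pathway gene called in iSSC against SSC, in 104 tested (0.962%, against 2.09% of all genes). It read 9.61 and 9.04 in mSSC, 7.46 and 8.13 in iSSC, and 9.50 and 9.92 in SSC, and fell in iSSC by 1.92 ± 0.33 (adjusted p = 0.048, kept under 5 of 13 settings). Among 15 nuclear cofactors Ctbp2, a corepressor, rose 6.04-fold in mSSC against SSC (2.60 ± 0.40, adjusted p = 0.0088) and Crebbp, a histone acetyltransferase that works with beta-catenin, fell (-2.10 ± 0.32, adjusted p = 0.0089). Of 14 other targets 1 (7.14%, beside 8.22% of all genes) rose against SSC, Tnfrsf19, a receptor of the tumour necrosis factor family (1.81 ± 0.36, adjusted p = 0.019). Against iSSC 1 target (7.14%, beside 9.6% of all genes) fell, Cd44, a hyaluronan receptor (-3.59 ± 0.91, adjusted p = 0.042). Its levels were 5.51 and 8.39 in mSSC, 10.19 and 10.89 in iSSC, and 10.49 and 9.37 in SSC. This call was kept under 4 of 13 settings and lost with a term for the replicate number, with either scaling, in the fit of 4 arrays and without any array but mSSC replicate 2. Cyclin D1, encoded by Ccnd1, was at -1.43 in mSSC against SSC (adjusted p = 0.10).

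**Figure D5:**
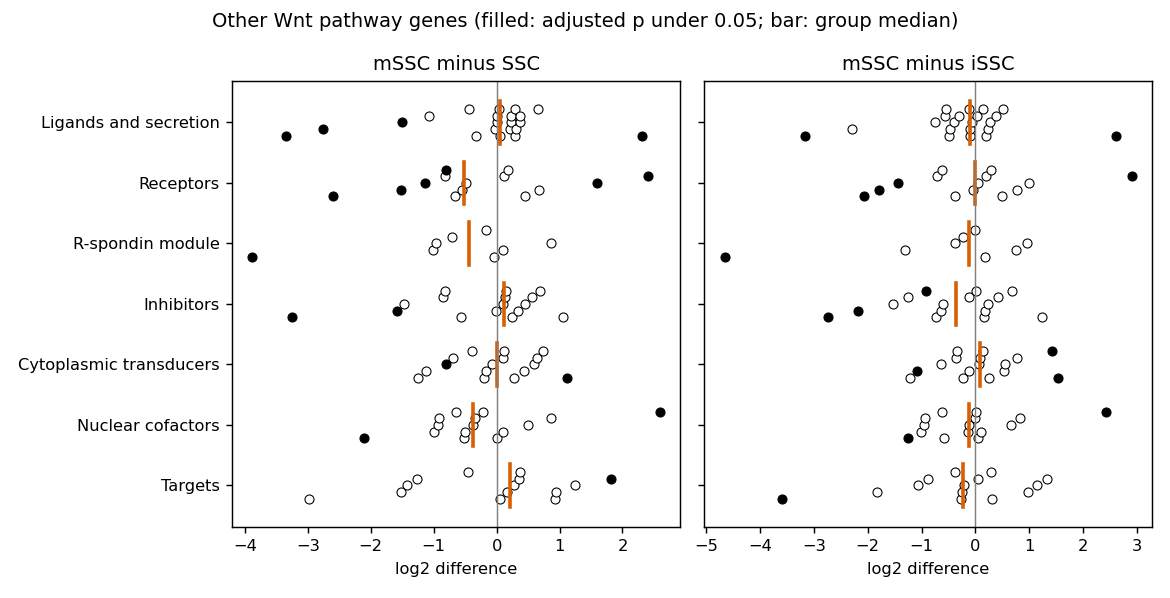
Log2 differences (horizontal axis) of the 104 other pathway genes by group, in mSSC minus SSC and mSSC minus iSSC, with a bar at the group median and filled points where the adjusted p was under 0.05. The receptors hold filled points on both sides, Fzd5 at 2.40 and Fzd1 at -2.61 among them. Of the 16 inhibitors 2 are filled in mSSC minus SSC and 3 in mSSC minus iSSC, all on the lower side.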

How the data were processed

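RNA of 6 samples, 2 each of mSSC, iSSC and SSC, was amplified and biotin-labelled from 10 µg with NuGEN kits and hybridized to 1 Affymetrix array per sample, per the labels' protocols. The deposited values are log2 signals per probe set, made by the authors with RMA, per the submitters' processing notes. RMA subtracts background, quantile-normalizes arrays and summarises probes. No version of RMA is named.

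Of 45101 probe sets 34958 carried 1 symbol alone, 932 carried more and 9211 none in the probe table. The probe set with the highest mean over 6 arrays stood for a gene, the others were a check, and 0 columns were unused. The 3 comparisons used limma 3.58.1 and R 4.3.3 (group means model, moderated variances, 2-sided, 3 residual degrees of freedom), with no filter on low values. The fit was tested on simulated data. Named are all 10 genes and, per pathway group, up to 3 called genes with the smallest p in each comparison and the 2 brightest. Not every gene so allowed is named, and Fzd9 is named outside this rule. Genes and lists were chosen with earlier results of these data known. The alternatives were a term for the replicate number, fits on 4 arrays, no dim genes, averaged probe sets, another variance model, 2 scalings, other probe sets, and leaving out each array. Leaving out either array of the kind not compared gave the same result as the fit on 4 arrays. Tallies of settings therefore count that fit more than once. Promoter sequences come from RefSeq.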

Additional observations from a re-analysis of the deposited data

How the results depend on the processing

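The 0 calls among the 9 genes in iSSC against SSC, and counts of 3 to 5 in mSSC against SSC, held under every setting. Leaving out 1 array at a time, the mSSC against iSSC count went from 0 (without either iSSC array) to 5 (without either SSC array), where fewer arrays entered the fit. For the other pathway genes it went from 11 to 19 in mSSC against SSC, from 0 to 2 in iSSC against SSC and from 3 to 18 in mSSC against iSSC. For all genes it went from 1966 to 3462, from 0 to 503 and from 604 to 3724. Only the 4 arrays compared gave 1966 calls over all genes in mSSC against SSC, against 3425. In iSSC against SSC the 1 pathway call became 0 with a replicate block, averaged probe sets, a common median or quantile normalization, and the 381 calls over all genes became 148 with a replicate block and 29 with averaged probe sets. The labels share only replicate numbers, 2 per group, and do not pair samples. The correlation over genes of replicate 1 minus replicate 2 was 0.12 between SSC and iSSC, 0.068 between SSC and mSSC, and 0.17 between iSSC and mSSC. With a replicate block the counts of called genes among the 9 were 4, 0 and 4, as without it, and Sp5 (adjusted p = 0.050) and Nkd1 (adjusted p = 0.043) changed sides in mSSC against iSSC.

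Signs turned only for differences that had not passed. In iSSC against SSC the other probe sets gave -0.017 for Axin2, 0.67 for Tcf7l1, 0.039 for Lgr4, and 0.55 and 0.86 for Ctnnb1, and averaged probe sets gave 0.23 for Tcf7l1 and 0.47 for Ctnnb1. In mSSC against SSC the dimmer Nkd1 probe sets gave 0.42 and 0.21 and the other Ctnnb1 ones 0.60 and 1.04, with 0.52 when averaged. In mSSC against iSSC they gave 0.065 and 0.12 for Nkd1, and 0.047 and 0.19 for Ctnnb1, with 0.05 when averaged. A common median adds the same amount to the difference of every gene in a comparison. That amount took the Ctnnb1 differences past 0, to 0.16 for mSSC minus SSC, 0.062 for iSSC minus SSC and 0.10 for mSSC minus iSSC. With 1 array left out, values in iSSC against SSC ranged from -0.21 to 0.41 for Lef1, from -0.77 to 0.57 for Lgr4, from -0.080 to 0.32 for Dkk1 and from -0.16 to 0.14 for Ctnnb1. Ctnnb1 ranged from -0.25 to 0.060 for mSSC minus SSC and from -0.17 to 0.0045 for mSSC minus iSSC. Apart from those with a common median, the cause of these turns was not tested. Probe sets near background limit what can be said of Axin2, Lgr4, Dkk1 and Lef1 beyond the brightest one.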
